A study of Drosophila melanogaster with 4 samples.

Results

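Small nucleolar RNAs were taken as every entry of the deposited tables whose gene name starts with snoRNA:, which gave 252 entries of 14146, or 248 distinct symbols. By the letters of the symbol, 108 entries were Psi, the H/ACA type, 100 were Me, the C/D type, and 44 carried other names, among them 5 Or-aca, 14 Or-CD and 4 U3 entries. RNA came from fat bodies of Drosophila melanogaster larvae of yw background in the 3rd instar, 110 h after egg laying. The ND-75-i group (n = 2 libraries) carried dMef2-Gal4 with UAS-ND-75-RNAi, and the Con group (n = 2) carried dMef2-Gal4 with UAS-white-RNAi, so both groups expressed Gal4 and an RNAi construct. The dMef2-Gal4 driver is known to act in muscle, while the RNA was that of the fat body, so the level of the targeted gene in these libraries does not measure the knockdown. Each library pooled 10 fat bodies, and nothing in the labels says that replicates came from separate crosses, so a p-value speaks only for the spread among these 4 samples, and that spread may be technical.

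Small nucleolar RNAs are short noncoding RNAs that guide chemical modification of ribosomal and spliceosomal RNA. H/ACA snoRNAs guide the conversion of uridine to pseudouridine and work with the pseudouridine synthase Nop60B, the fly dyskerin, while C/D snoRNAs guide methylation of the ribose and work with the methyltransferase Fib, or fibrillarin. In flies most of them lie inside introns of host genes, many of which encode ribosomal proteins, and are released when the intron is processed. The symbol names the modification, the target RNA and the position in it, with a letter after the position for copies that share a target, and U3 is a C/D snoRNA that acts in the cleavage of the ribosomal RNA precursor.

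Most snoRNA entries were not seen at all. Of the 252, 170 were listed at an FPKM, a fragment value scaled for length and depth, of 0 in all 4 libraries, and 82 were above 0 in at least 1. The types differed in this, with 69 of 108 Psi entries (63.9%), 3 of 100 Me entries (3%) and 10 of 44 other entries (22.7%) above 0 in any library. The 3 Me entries were MeU5-C46, Me18S-A1576 and Me28S-U1688. The number of entries above 0 was 62 and 59 in the 2 ND-75-i libraries, against 49 and 55 in the Con libraries, and 28 were above 0 in all 4. A total of 18 entries had a status other than OK in some library, every time that of too little data.

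Length went together with this split. The Psi entries spanned 124 to 268 nt (median 140) and the Me entries 46 to 316 nt (median 80.5). All 120 snoRNA entries of 112 nt or less, 87 Me and 33 other, were at 0 in every library. Among the 67 entries of that length that are not snoRNAs, 1 was above 0, an snmRNA of 110 nt. Within the snoRNAs, 2 of 14 entries of 113 to 129 nt, 23 of 46 of 130 to 139 nt, 37 of 47 of 140 to 149 nt and 17 of 22 of 150 to 173 nt were above 0 in any library. From 113 to 173 nt, 67 of 106 Psi entries and 2 of 12 Me entries were above 0, beside 16 of 31 entries that are not snoRNAs, but the lengths within that range differ by type. At 113 to 129 nt 0 of 4 Psi entries and 2 of 10 Me entries were above 0, the other way round. From 124 nt, the shortest Psi length, up to 173 nt there were 3 Me entries, all at 0. All 3 lacked a matching symbol in the BDGP6 annotation used for strands. The 2 types could thus be compared at like length for very few C/D members, and a 0 for a shorter member carries no reading of its level.

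**Figure D1:**
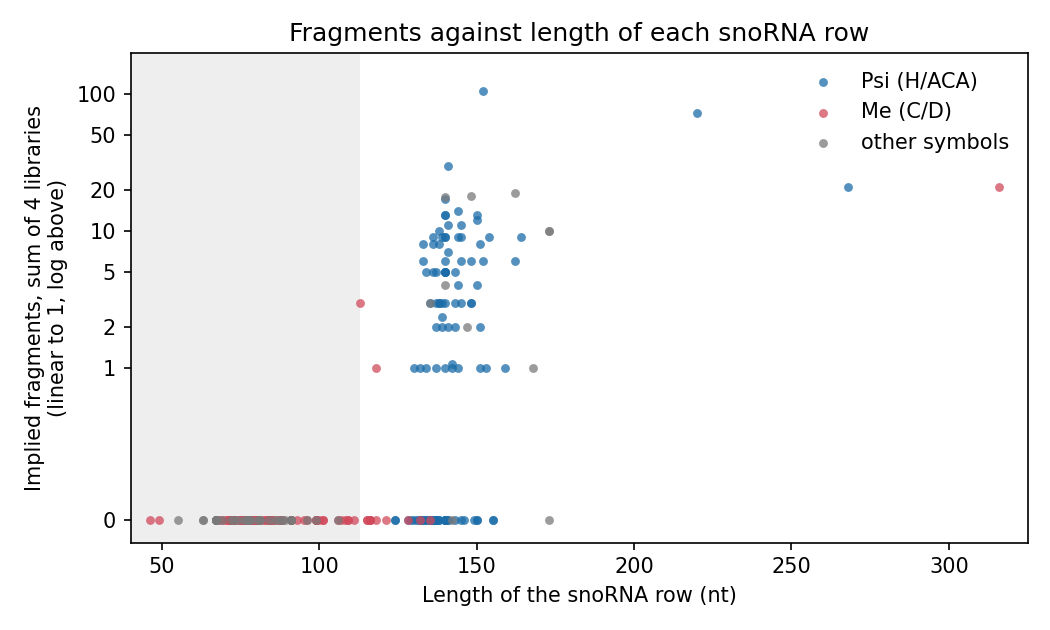
Each point is 1 of the 252 snoRNA entries, by its length in nt and by the fragments implied by its deposited bounds, summed over 4 libraries (axis linear to 1 and logarithmic above), with Psi, Me and other symbols in 3 colours. All 120 entries in the shaded range of 112 nt or less lie at 0, and the 82 entries above 0 start at 113 nt.

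The deposited bounds show how few fragments stand behind these values. The squared ratio of each FPKM to 0.5 of its distance to the upper bound came out within 0.05 of a whole number for 214 of the 225 snoRNA values above 0 (95.1%), and these numbers are given here as fragments. Of the 214 values, 87 were 1 fragment, 53 were 2 and 29 were 3, so 79.0% were 3 fragments or fewer, and 8 values reached 10. Over the 4 libraries together, 19 entries had 10 fragments or more and 32 had 1 to 3. The FPKM given by 1 fragment depended on length, being 67.4 at 113 nt, 16.9 at 140 nt, 10.9 at 152 nt and 0.68 at 316 nt in Con replicate 1. The deposited lower bound was above 0 (by more than 0.001 FPKM) in all 4 libraries for 3 entries and in at least 1 library for 22.

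**Figure D2:**
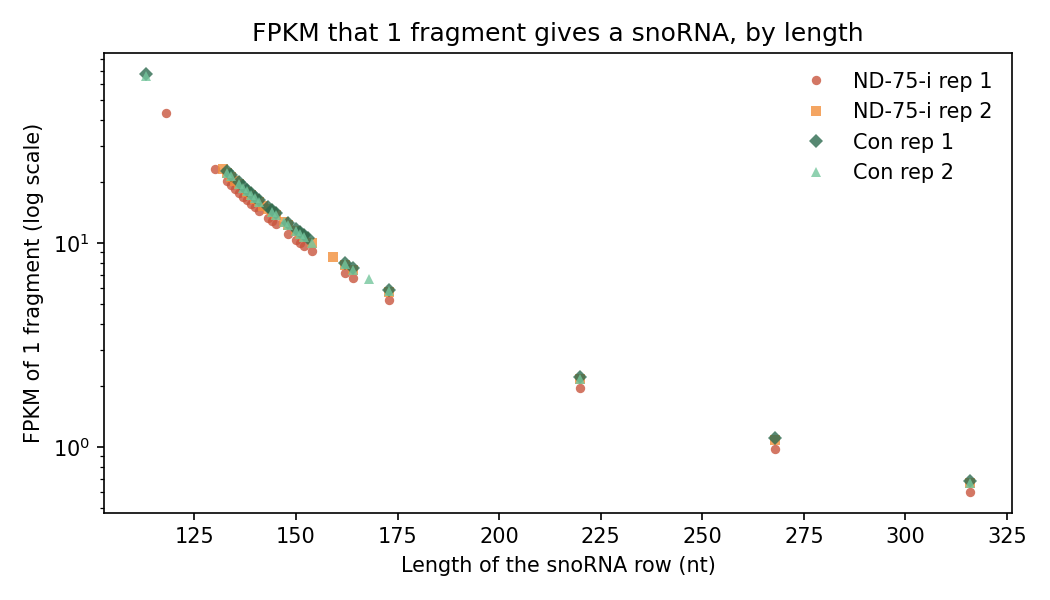
The FPKM that 1 fragment gives (logarithmic axis) is plotted against the length of the snoRNA entry in nt, with 1 colour per library. It falls from 67.4 FPKM at 113 nt to 0.68 FPKM at 316 nt in Con replicate 1, and the 4 libraries lie close together at each length.

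Of the whole series, the following bears on these values. From the FPKM worth of 1 fragment, the depths of the ND-75-i libraries were 1.13 and 1.02 times that of Con replicate 1, and Con replicate 2 stood at 1.02 times. ND75 itself, a subunit of mitochondrial complex I, had 94.8 and 79.0 FPKM in the libraries labelled ND-75-i, against 46.6 and 43.9 FPKM in the Con libraries, so it was higher and not lower there (log2 change 0.92, SE 0.13, adjusted p = 0.0353 by limma), and the groups are named by their labels throughout. The log2 change of all 10024 genes tested had a median of 0.25, and -0.02 after a median-ratio rescaling of the libraries. Summed FPKM of the 5 fat body markers with status OK in every library was 13408 and 25425 in ND-75-i against 76012 and 79805 in Con. The fall was that of Lsp1alpha, Fbp1 and Fbp2. Rfabg had 2940 and 3098 in ND-75-i against 2688 and 2237 in Con, and Lsd-1 had 1172 and 1091 against 1213 and 1330. Of the other 3 fat body markers, Lsp1beta and Lsp1gamma are listed at 0 in all 4 libraries and Lsp2 in both Con libraries, as failed estimates. Summed FPKM of 10 muscle markers was 66.8 and 47.9 in ND-75-i against 36.9 and 41.6 in Con, of 10 salivary gland markers 38372 and 29693 against 85656 and 39874, and of 10 testis germline markers 112 and 21.1 against 206 and 161. It was 35.1 and 51.8 in ND-75-i against 56.0 and 159 in Con for 6 hemocyte markers, and 343 and 888 against 161 and 996 for 7 gut markers, and no marker outside the fat body list was at 0 in any library. The part of these differences in the snoRNA values was not tested, and in bulk tissue fewer cells of a type and less RNA per cell cannot be told apart.

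Fragments of the Psi snoRNAs, with the Or-aca entries left to the other symbols below, were more numerous in the ND-75-i libraries. Summed over the Psi entries they came to 210 (95% exact Poisson interval 183 to 240) and 179 (154 to 207) in ND-75-i, against 85 (67.9 to 105) and 115 (94.9 to 138) in Con, intervals that cover counting error only. They also take each fragment as counted once, and whether lettered copies share reads was not tested. Both ND-75-i libraries lay above both Con libraries, with values that are not whole left out (1 a library, and 2 in Con replicate 2). Per depth of Con replicate 1, this was 181 fragments a library in ND-75-i and 99.0 in Con, a ratio of 1.83. In summed FPKM the Psi entries averaged 2262 ± 204 in ND-75-i and 1319 ± 232 in Con (SD, n = 2 each), a ratio of 1.71, which was 1.39 after median-ratio rescaling. No p is given for a sum over members, and 2 libraries against 2 allow no exact permutation p below 0.33.

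For the Me entries, taken as C/D type by symbol, the direction depended on the scale, fragments or FPKM. The Me entries had 10 and 8 fragments in ND-75-i, against 2 and 5 in Con, a ratio of 2.41 per depth. Their summed FPKM was 48.7 and 5.33 in ND-75-i, against 68.1 and 134 in Con, a ratio of 0.27. Both sums rest on 3 entries of unlike length. The 316 nt MeU5-C46 held 9 of the 10 fragments in ND-75-i replicate 1 and all 8 in ND-75-i replicate 2. In Con 3 fragments of the 113 nt Me18S-A1576 gave nearly all of the FPKM. The other symbols had 11 and 14 whole fragments in ND-75-i, against 14 and 28 in Con, a ratio of 0.56 per depth. Of these, Or-aca4 held 2 and 0 fragments in ND-75-i against 9 and 8 in Con. U3:54Aa and U3:54Ab, whose values were identical, are both counted, each with 2 and 1 against 1 and 6. The sum leaves out Or-CD2, whose values are not whole. Without Or-CD2 the summed FPKM of the other symbols was 105 and 175 in ND-75-i against 126 and 229.9 in Con, a ratio of 0.79. With it the sums were 201 and 336 against 126 and 356, a ratio of 1.11.

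**Figure D3:**
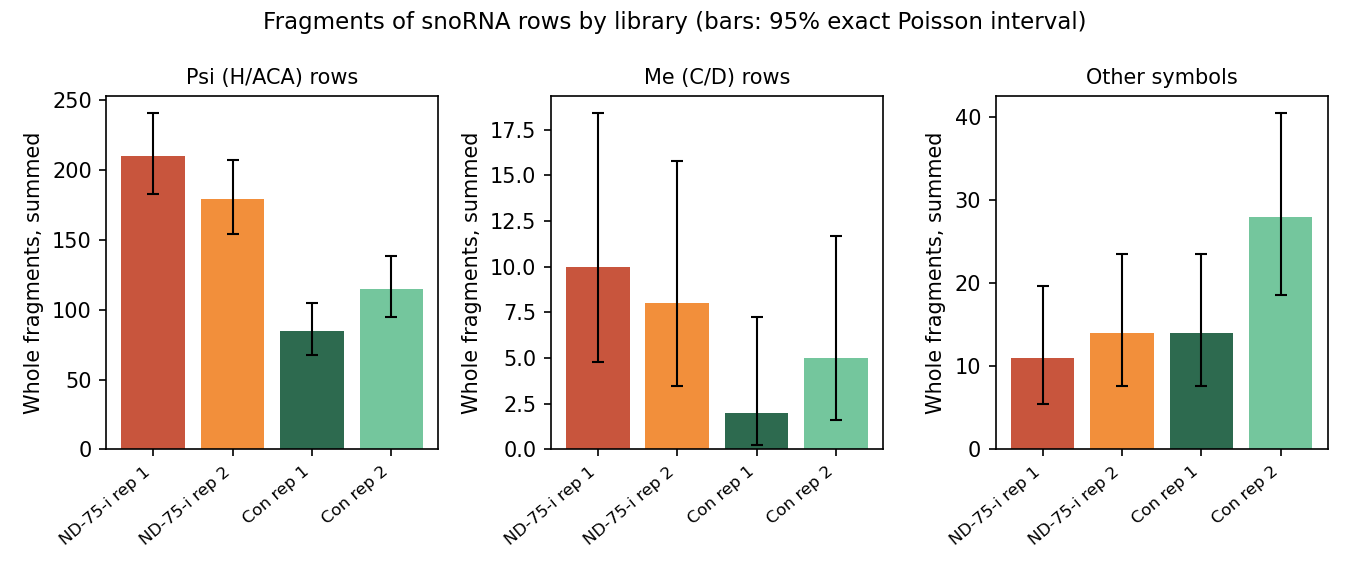
Bars give the whole fragments summed over Psi, Me and other snoRNA entries in each library, with a separate vertical axis in each panel. Error bars give the 95% exact Poisson interval, which takes each fragment as counted once. The ND-75-i libraries have 210 and 179 Psi fragments against 85 and 115 in the Con libraries, while the Me panel holds at most 10 fragments a library.

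Single members were tested with limma on log2(FPKM + 1) over the whole table, and called past 0.05 after Benjamini-Hochberg adjustment. Of the 248 symbols, 65 passed the filter on low values (55 Psi, 2 Me and 8 other). Of these, 7 were called higher and 2 lower, where 7.76% and 1.09% of all genes tested were. However, 5 of the 7 and both of the 2 were at 0 in both libraries of 1 group and passed the filter only through the other group, so they had to differ, and nothing is read from these counts or from the median. The median log2 change was 0.53 among the 65 and 0.25 over all genes. Both ND-75-i libraries lay above both Con libraries for 20 of the 65 (30.8%), beside 53.7% of all genes, and below them for 7 (10.8%), beside 21.7%. With at least 10 fragments asked for, 19 members were tested and 2 were called, where 9.26% of all genes were. Voom weights on the fragments called 0 of the 65 (unadjusted p was under 0.05 for 1 higher and 2 lower), where 5.94% of all genes were called. Without any 1 of the 4 libraries, limma called 0 of the 65 and 0 genes in all. Unadjusted p was then under 0.05 for 11 to 23 snoRNAs higher (16.9% to 35.4%) and 2 to 10 lower (3.08% to 15.4%), beside 17.0% to 28.3% and 3.43% to 16.3% of all genes. The deposited bounds of the 2 groups were apart for 0 of the 252 entries. Of the 887 genes called in all, 26 had a group at 0 in both libraries.

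Psi18S-531 had the highest mean FPKM of the 82 snoRNA entries above 0, none of which is shorter than 113 nt, and was the only one of the 9 called with more than 10 fragments. It lies on chromosome X at 657116 to 657267 (152 nt), coordinates as deposited, in a build not given in the sources used here. The shortest entry around it is CR42491, and RpL22, the gene of a large ribosomal subunit protein, also spans it. It guides pseudouridylation of 18S ribosomal RNA, as its name says. Its FPKM was 388 and 321 in ND-75-i, against 197 and 183 in Con, from 40 and 30 fragments against 18 and 17. The groups did not overlap, and the rise was 0.89 on the log2(FPKM + 1) scale (SE 0.13, limma adjusted p = 0.0386). The adjusted p was 0.0933 after median-ratio rescaling, 0.0864 after quantile normalization and 0.278 with voom weights on the fragments, with the direction kept. CR42491 had 92.3 and 118 FPKM in ND-75-i against 57.0 and 72.0 in Con (log2 change 0.69, adjusted p = 0.0921), and RpL22 rose by 0.72 (adjusted p = 0.0408). Psi28S-2179, also within RpL22, had 49.5 and 54.6 FPKM in ND-75-i against 14.0 and 27.4 in Con (4 and 4 fragments against 1 and 2, adjusted p = 0.0829).

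Psi18S-1086, in CG13900, was the other member called with both groups above 0. It had 22.3 and 24.5 FPKM in ND-75-i, against 12.5 and 12.3 in Con. Those values are 2 and 2 fragments against 1 and 1, with a log2 change of 0.86 (SE 0.11, limma adjusted p = 0.0336, and 0.106 after median-ratio rescaling). With voom weights its adjusted p was 0.642.

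**Figure D4:**
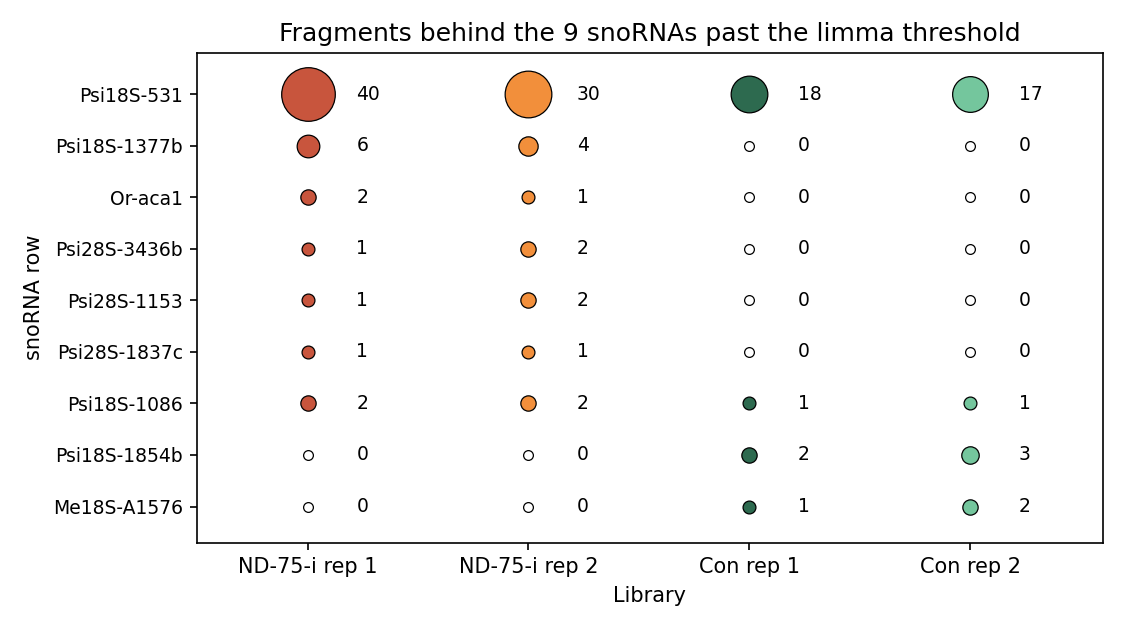
Circles show the fragments of each of the 9 snoRNAs past the limma threshold in each library, with area growing with the number printed beside it and open circles at 0. Psi18S-531 holds 40 and 30 fragments in ND-75-i against 18 and 17 in Con, and the 7 members with a group at 0 hold 29 in all.

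Members at 0 in 1 group were set beside their neighbours at the same locus. Of 12853 symbols with status OK in all libraries and above 0 in any, 1.03% were at 0 in both Con libraries and above 0 in both ND-75-i libraries, and 0.576% the other way round. Among the snoRNAs 5 had the first pattern and 2 the second. A fold against a group at 0 is not given. All 7 rest on 2 to 10 fragments, and since the filter let them in through the group above 0, their limma adjusted p of 0.0133 to 0.0234 are no independent test. With voom weights their adjusted p was 0.104 to 0.326.

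Psi18S-1377b, within the small-subunit protein gene RpS7 (3R at 26033215 to 26033352), had 97.3 and 71.4 FPKM in ND-75-i, from 6 and 4 fragments, and was listed at 0 in both Con libraries. Its neighbour Psi18S-1377d had 70.4 and 38.8 FPKM in ND-75-i, against 59.5 and 0 in Con, or 4 and 2 fragments against 3 and 0. Over the 5 lettered copies, Psi18S-1377a to Psi18S-1377e, there were 13 and 7 whole fragments in ND-75-i, against 4 and 1 in Con. That leaves out Psi18S-1377a in Con replicate 2, whose 34.4 FPKM came out as 1.33 fragments, not a whole number. At its 139 nt, 1 fragment gave 17.2 FPKM in that library. The copies share a target and could share reads, so the assignment of a fragment to 1 copy is uncertain. RpS7 itself had 4277 and 4459 FPKM in ND-75-i against 3133 and 3386 in Con (log2 change 0.42, adjusted p = 0.0985).

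At RpS16, Or-aca1, an H/ACA snoRNA with no assigned target in its name, had 36.7 and 20.2 FPKM in ND-75-i, from 2 fragments and 1, and 0 in Con. The 3 Psi28S-1175 copies beside it were above 0 in all 4 libraries, with 13 and 4 fragments in ND-75-i against 3 and 4 in Con. The 67 nt Me28S-G2173 of the same locus was at 0 throughout.

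At RpL17, Psi28S-3436b had 1 and 2 fragments in ND-75-i and 0 in Con, while its copy 3436a had 1 and 2 in ND-75-i against 1 and 3 in Con. Its neighbour Psi28S-1060 had 2 and 6 against 1 and 3, and Psi28S-1232 was at 0 in all 4. Psi28S-1837c in CG10576 had 1 fragment in each ND-75-i library and 0 in Con, with copies 1837a and 1837b at 0 in all 4. Psi28S-1153, with no host entry, had 1 and 2 against 0.

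The 2 members at 0 in ND-75-i also stood on few fragments. Psi18S-1854b, in RpS5a, was at 0 in both ND-75-i libraries and had 38.1 and 56.0 FPKM in Con, from 2 and 3 fragments. Its copies 1854a and 1854c went unlike it, with 0 and 2 fragments in ND-75-i against 1 and 0 in Con for 1854a and 1 and 3 against 1 and 1 for 1854c. The 3 copies summed to 1 and 5 fragments in ND-75-i and 4 and 4 in Con, which overlap. Me18S-A1576, a C/D snoRNA for a methylated adenosine of 18S RNA in the noncoding host Uhg2 (2L at 9894795 to 9894907), was at 0 in ND-75-i and had 67.4 and 132 FPKM in Con, which are 1 and 2 fragments. Uhg2 had 30.2 and 25.3 FPKM in ND-75-i against 13.8 and 22.9 in Con (adjusted p = 0.183), and its 3 other snoRNAs, of 67 to 81 nt, were at 0.

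The other abundant H/ACA snoRNAs did not pass the test. Psi18S-920, in RpL10Ab, had 158 and 111 FPKM in ND-75-i, against 97.4 and 95.5 in Con (11 and 7 fragments against 6 and 6, adjusted p = 0.170). Psi18S-1820, in Nop60B, had 44.9 and 65.9 FPKM in ND-75-i, against 67.5 and 99.3 in Con (adjusted p = 0.203). Those values are 3 and 4 fragments against 4 and 6. ND-75-i replicate 2 and Con replicate 1 thus tied at 4 fragments, and only depth scaling set them apart. The host Nop60B was higher in ND-75-i, with 55.4 and 69.3 FPKM against 25.7 and 42.8 in Con (log2 change 0.88, SE 0.29, not past the threshold).

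Psi28S-3327c, in RpS4, had 44.9 and 98.9 FPKM in ND-75-i, against 50.6 and 16.6 in Con (adjusted p = 0.258). Psi28S-1192a, in RpS5a, had 135 and 33.0 FPKM in ND-75-i, against 33.7 and 0 in Con (adjusted p = 0.239). For both, 1 ND-75-i library lay within the Con range. Psi28S-2442b, in exba, had 64.2 and 70.8 FPKM in ND-75-i, against 14.5 and 42.6 in Con, and Psi28S-3091b, in the same gene, had 40.1 and 22.1 against 67.7 and 44.3. These 2 neighbours ran opposite ways in FPKM (adjusted p = 0.148 and 0.173). In fragments Psi28S-2442b had 5 and 5 in ND-75-i against 1 and 3 in Con, and Psi28S-3091b had 2 and 1 against 3 and 2. For Psi28S-3091b, ND-75-i replicate 1 and Con replicate 2 thus tied at 2 fragments, and only depth scaling set their FPKM apart.

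Some longer members held more fragments at lower FPKM. Psi28S-291 and Psi28S-2566 below, like Psi28S-2179 above and the U3 entries, were picked for description after their values were seen. Psi28S-291, of 220 nt in RpL3, had 25 and 24 fragments in ND-75-i, against 6 and 18 in Con (48.7 and 51.5 FPKM against 13.2 and 38.8, adjusted p = 0.200). Con replicate 2 had 3 times the fragments of Con replicate 1, and both lay below the ND-75-i libraries. Psi28S-2566, of 268 nt in CG3902, had 9 and 9 fragments in ND-75-i, against 3 and 0 in Con (adjusted p = 0.123). Its host, an acyl-CoA dehydrogenase gene, had 599.9 and 490.1 FPKM in ND-75-i against 235 and 211 in Con and rose by 1.28 on the log2 scale (SE 0.14, adjusted p = 0.0251). MeU5-C46, in CG1142, is taken as C/D type by its symbol alone, which names the U5 spliceosomal RNA. It is named scaRNA:MeU5-C46 in the BDGP6 annotation, and its type was not checked otherwise. It had 9 and 8 fragments in ND-75-i, against 1 and 3 in Con (5.44 and 5.33 FPKM against 0.68 and 2.01, log2 change 1.51, SE 0.35, adjusted p = 0.0735). Me28S-U1688 had 1 fragment in ND-75-i replicate 1 alone.

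Among the symbols outside Psi and Me, Or-aca4 was lower in ND-75-i by value, with 14.2 and 0 FPKM in ND-75-i against 72.1 and 62.9 in Con, or 2 and 0 fragments against 9 and 8 (adjusted p = 0.125). The entry around it, CG10936, was below 1 FPKM in all 4 libraries. Or-aca5, in Uhg4, had 33.4 and 98.0 FPKM in ND-75-i, against 25.1 and 61.5 in Con, which overlap (adjusted p = 0.585). Or-CD2 had 95.4 and 161 FPKM in ND-75-i, against 0.088 and 126 in Con (adjusted p = 0.335), and its values are not whole fragments. It lies within both CG8078 and Uhg4, so its reads may be split with them. U3:54Aa and U3:54Ab had identical values in every library, 10.5 and 5.77 FPKM in ND-75-i against 5.91 and 34.8 in Con, and cannot be told apart.

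The Psi snoRNAs above 0 lay mostly in highly expressed hosts. Of the 252 entries, 242 lay inside another entry, 90 hosts in all, and of 210 with a known strand on both sides 206 shared the host's strand. Psi entries in hosts of 1000 FPKM or more were above 0 in 37 of 39 cases, those in hosts of 100 to 1000 FPKM in 13 of 18, those in hosts of 10 to 100 FPKM in 13 of 42, and those in hosts below 10 FPKM in 2 of 5. In the same order, Psi entries without a letter were above 0 in 12 of 13, 5 of 6, 6 of 7 and 2 of 4 cases. Lettered copies were above 0 in 25 of 26, 8 of 12, 7 of 35 and 0 of 1, so from 10 FPKM upward the difference lay mainly with them. The 35 came from only 3 hosts, with 17 of them in Arc-p34. In ribosomal protein genes 38 of 40 Psi entries were above 0, in other genes 27 of 63. These are descriptions over members that share hosts and libraries.

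Single-copy Psi snoRNAs (median 145 nt) were above 0 in 29 of 34 cases and lettered copies (median 138 nt) in 40 of 74. The parts of length and of reads shared between copies in this difference were not tested. The tandem arrays showed the range. Arc-p34, an Arp2/3 complex subunit gene, held 17 copies of Psi18S-525 and Psi18S-640, of 124 to 137 nt. They gave 1 fragment in all, at a host FPKM of 33.3 to 36.8. The chromatin remodeller gene dom held 12 Psi and 4 Me entries, 5 of them above 0, with 5 and 2 fragments in ND-75-i against 3 and 2 in Con. RpS5a held 14 Psi entries, 13 above 0, with 22 and 14 fragments in ND-75-i against 9 and 11 in Con. In exba all 8 Psi entries were above 0, with 23 and 14 fragments in ND-75-i against 10 and 15 in Con, groups that overlap. The Uhg1 and Uhg5 noncoding hosts, which carry 16 and 11 short snoRNAs, gave 0 fragments in every library, and so did the 7 short snoRNAs of RpL28, at a host FPKM above 1000.

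**Figure D5:**
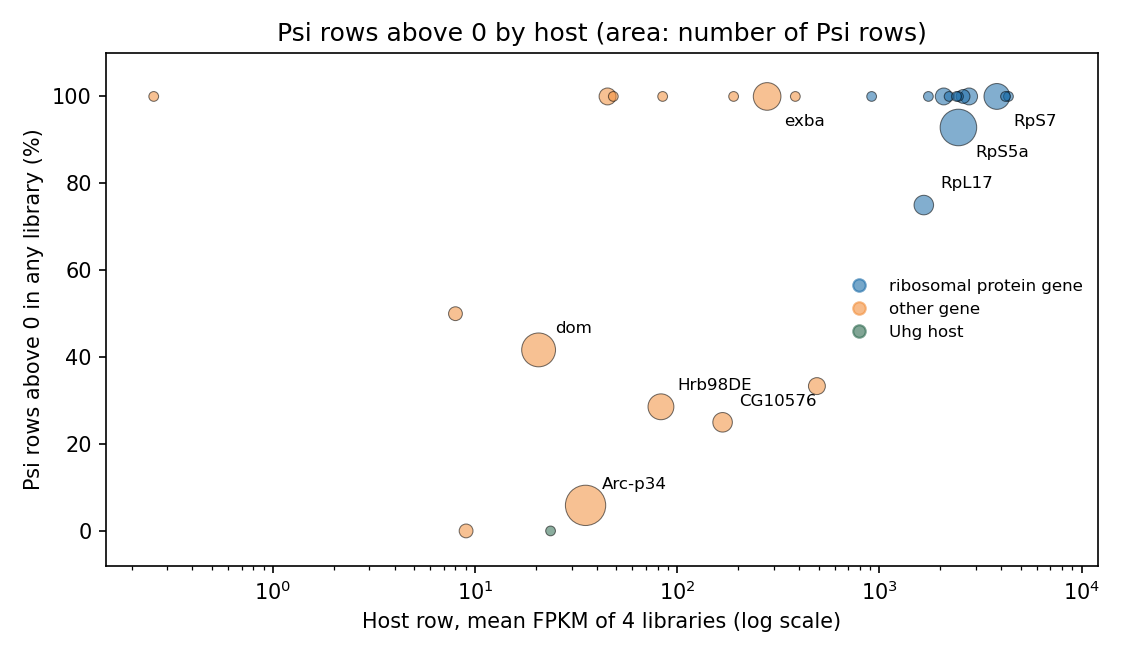
Each circle is 1 host entry, placed by its mean FPKM over 4 libraries (logarithmic axis) and by the percentage of its Psi snoRNAs above 0 in any library, with area by the number of Psi entries and colour by host class. RpS5a (13 of 14) and RpS7 (7 of 7) lie at the upper right, and Arc-p34 (1 of 17) and dom (5 of 12) below.

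Fragments of snoRNAs in ribosomal protein genes came to 112 and 90 in ND-75-i, against 39 and 62 in Con, and those in other genes to 105 and 89 against 55 and 63. The second sum holds Psi18S-531 by its shortest entry, CR42491. Counted by RpL22, which also spans it, the sums were 152 and 120 in ND-75-i against 57 and 79 in Con for ribosomal protein genes, and 65 and 59 against 37 and 46 for other genes. Of 83 hosts tested, 6 rose (7.23%, beside 7.76% of all genes), namely RpS5a, RpS20, RpL11, RpL22, CG3902 and tok, with a median log2 change of 0.55 over the 83 beside 0.25 over all genes. RpS5a had 2987 and 3111 FPKM in ND-75-i against 1767 and 1976 in Con, and rose by 0.71 (SE 0.12, adjusted p = 0.0474). After median-ratio rescaling the median of the hosts was 0.26 and 0 of them passed as higher, beside 326 of all 10024 genes. Voom called 7 of the 83 hosts higher, beside 502 of all 10024 genes.

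The proteins that bind snoRNAs had higher FPKM in ND-75-i in all 8 cases, and 0 passed the test. Of the 8 snoRNP proteins tested, limma called 0 higher and 0 lower, 8 had an unadjusted p under 0.05 in the higher direction (29.4% of all genes did), and voom called 0. The median log2 change was 0.84, or 0.54 after median-ratio rescaling, beside 0.25 and -0.02 over all genes. In all 8 both ND-75-i libraries lay above both Con libraries, as in 53.7% of all genes. Fib had 44.6 and 53.6 FPKM in ND-75-i, against 19.1 and 34.0 in Con (adjusted p = 0.126). The C/D core protein nop5 had 47.1 and 51.4 against 20.3 and 31.0 (adjusted p = 0.0785). Of the H/ACA core proteins, NHP2 had 49.4 and 71.4 FPKM in ND-75-i, against 29.5 and 38.5 in Con (adjusted p = 0.109).

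For 4 assembly factors, among them the ATPases pont and rept, limma called 0, as did voom, with 0 at an unadjusted p under 0.05 and a median log2 change of 0.13. For the 7 Uhg noncoding hosts limma and voom called 0, with 4 higher at an unadjusted p under 0.05 (29.4% of all genes) and a median of 0.67. Uhg1 had 10.5 and 13.5 FPKM in ND-75-i, against 4.26 and 6.26 in Con (log2 change 1.07, adjusted p = 0.0718).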

How the data were processed

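Total RNA of 4 libraries, 2 per group, went through Illumina HiSeq2000 sequencing (per the labels). The authors deposited 1 table per library with an FPKM, a lower and an upper FPKM bound and a status for 14146 entries, per the file headers. The submitters' processing notes list Bowtie 0.12.2. For the FPKM program, annotation, strand setting and build, the sources used here give nothing. Starts had 1 added. Date-like gene names in Con replicate 1 were restored from the identical locus in Con replicate 2.

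Since FPKM cannot serve as counts, limma 3.58.1 in R 4.3.3 tested log2(FPKM + 1) with trend, group as the only term, two-sided, over 10024 symbols with status OK in all 4 libraries and at least 1 FPKM in at least 2. Changes on this scale understate those of low genes. The script was tested on simulated data with normal noise on the log scale and changes only in genes of higher level. Whole fragments were not simulated, so that test does not cover members with few fragments. Residual degrees of freedom were 2 and prior ones 1.95. Fragments implied by the bounds cover counting error only. Values of 3 fragments or fewer were counted as low, and the main limma fit had no filter on fragments. A host is the shortest other entry around a snoRNA, and entries of one host, or within 5 kb where there is none, form a locus. Strands and current symbols came from a BDGP6 annotation, which matched 222 snoRNAs, 201 with the same length.

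Named members were those past the threshold, the 8 highest Psi and Me and 3 highest others by mean FPKM, members at 0 in 1 group with neighbours, and hosts of large loci, besides those said to be chosen after their values were seen. The members and lists were chosen with earlier results of these data known. Alternatives changed the pseudocount, filter, scaling, status, block and libraries. Those with at least 10 fragments and with voom were added after seeing the data. Figures were drawn in matplotlib 3.10.9, and tables in pandas 2.3.3 and NumPy 2.4.6 under Python 3.11.15.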

Additional observations from a re-analysis of the deposited data

How the results depend on the processing

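Of the 10024 genes tested 778 rose and 109 fell, and of the 65 snoRNAs among them 7 and 2. Scaling moved the balance over all genes to 326 against 130 after median-ratio rescaling and 592 against 373 after quantile normalization, with 5 snoRNAs higher and 2 lower under each. Without the filter on low values 209 genes rose and 49 fell, among them 2 and 2 snoRNAs. With at least 10 fragments 2 snoRNAs rose and 0 fell, with 1 lower at an unadjusted p under 0.05, and 9.26% of 9947 genes were called. With voom 502 genes rose and 93 fell, 5.94% of those tested, and 0 snoRNAs in either direction, with unadjusted p under 0.05 for 1 higher and 2 lower. Both were chosen after seeing the data.

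Leaving out any 1 library gave a range of 0 to 0 calls in either direction, for all genes and for snoRNAs, with shares at an unadjusted p under 0.05 given above (16.9% to 35.4% of snoRNAs higher, beside 17.0% to 28.3% of all genes). With the replicate block 792 of 10024 genes rose and 198 fell, and 10 and 3 of 65 snoRNAs. The block rests on shared numbers only, since 2 pairs (correlation of deviations 0.36) do not show a pairing.

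Requiring a lower bound above 0, 0 snoRNAs were at 0 in 1 group in either direction. Without 1 library, 9 to 13 were at 0 in Con (5 with all) and 3 to 9 at 0 in ND-75-i (2 with all). The Me ratio of summed FPKM, 0.27, was 20.1 without Me18S-A1576, and that of the other symbols, 1.11, was 0.79 without Or-CD2. Without 1 library, the log2 change reversed for Or-CD2 (-0.025 to 6.84, lowest without Con replicate 1), Or-aca5 (-0.23 to 1.29, lowest without ND-75-i replicate 2, and -0.10 without Con replicate 1) and Psi18S-1377d (-0.18 to 5.74, lowest without Con replicate 2). The cause was not tested. For single members, 211 alternative values kept their direction and side of the threshold, 54 lost the call and 1 gained it.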
